A study of Mus musculus with 12 samples.

Results

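The genes described here belong to the unfolded protein response and the integrated stress response, and were followed in livers of adult mice from natural matings or from in vitro fertilization (IVF). They were taken by name from a list of 32 genes, all of which are in the deposited count table of 24527 gene symbols, and all 32 passed the filter on low counts that left 13204 genes for testing. The 32 comprise 9 chaperones and co-chaperones, 2 lectin chaperones, 4 disulfide isomerases, 6 genes of translocation and degradation, 3 stress sensors, 3 transcription factors and 5 stress-response targets. Membership used no measured value, but the list was drawn up with earlier results of these data known.

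The data were messenger RNA counts from 12 libraries of snap-frozen liver of mice aged 39 weeks, all bred from CF1 females and B6SJL males. Natural females, natural males, IVF females and IVF males were represented by 3 libraries each. In IVF, sperm and eggs are joined in a dish and the embryos are then placed in a foster female, and per the labels it followed a protocol of the Jackson Laboratory. The labels give no separate statement on whether libraries of a group came from different animals or litters, so p-values measure the spread between these libraries. Messenger RNA counts do not show Xbp1 splicing, phosphorylation of the translation factor eIF2-alpha or cleavage of ATF6, the steps by which the sensors act.

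The endoplasmic reticulum (ER) is where secreted and membrane proteins fold, and liver, which makes most plasma proteins, depends on it heavily. When unfolded proteins accumulate there, the sensors IRE1 (Ern1), PERK (Eif2ak3) and ATF6 (Atf6) signal to the nucleus. IRE1 splices Xbp1 messenger RNA, ATF6 is cut to release a transcription factor, and PERK phosphorylates eIF2-alpha, which lowers protein synthesis overall while favouring translation of ATF4. XBP1 and ATF6 raise chaperone, translocation and degradation genes, and ATF4 raises genes of amino acid supply such as Asns. Other kinases that sense amino acid shortage or other stresses converge on eIF2-alpha, which is why the ATF4 branch is called the integrated stress response.

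These factors bind short DNA elements near the start of their target genes. The promoter sequences, from RefSeq on build GRCm38.p6, run from 250 bases before the annotated start to 50 after it, and 28 of the 32 genes had an entry. Searched on both strands, the ER stress element (CCAAT, 9 bases of any kind, then CCACG) was found in 9 of the 28, or 32.1%, against 39 of all 32851 promoters, or 0.119%. The 9 genes were Calr, Canx, Creld2, Derl3, Dnajc3, Hsp90b1, Hspa5, Pdia6 and Syvn1. These 9 are counted among the 39, and genes were listed because they belong to this response, so the contrast of shares is no test. ER stress element II (ATTGG, 1 base, then CCACG) was found in Dnajb11 and Herpud1 and in 0.037% of all promoters. The C/EBP-ATF response element TGATGNAA, which ATF4 binds, was found in Asns, Chac1, Herpud1 and Trib3, or 14.3% of the 28, and in 3.969% of all promoters. The unfolded protein response element TGACGTGG was found in 0 of the 28 and in 0.676% of all promoters. The element and element II share the letters CCACG but did not overlap in any of these genes, and a match of letters is a description, not evidence of binding.

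Only genes that carry an element can be shown, and they are not all the genes that differed most. Sdf2l1, Eif2ak3 and P4hb had an entry but none of these elements, and Hyou1 had no entry. Sites of some genes named in the comparisons are shown 5′ to 3′ along the gene's own strand. They are in lower case with the fixed letters of the element in capitals. Where the element lies on the opposite strand its letters appear reversed and complemented, as CGTGG followed by ATTGG, or as TT and CATCA around a base of any kind. Hspa5, chr2:34772005-34772063, plus strand, with the element from 65 to 47 bases before the start:
Hspa5: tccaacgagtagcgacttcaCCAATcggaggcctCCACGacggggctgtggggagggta
Creld2, chr15:88819500-88819558, plus strand, with the element on the opposite strand from 126 to 108 bases before the start:
Creld2: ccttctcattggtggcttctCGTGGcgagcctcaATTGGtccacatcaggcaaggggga
Derl3, chr10:75893222-75893280, plus strand, opposite strand, from 156 to 138 bases before the start:
Derl3: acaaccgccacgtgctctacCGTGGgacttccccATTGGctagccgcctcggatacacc
Syvn1, chr19:6046512-6046570, plus strand, from 44 to 26 bases before the start:
Syvn1: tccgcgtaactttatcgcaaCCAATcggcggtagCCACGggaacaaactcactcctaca
Hsp90b1, chr10:86705618-86705676 and chr10:86705513-86705571, minus strand, with elements in both orientations from 212 to 194 and from 107 to 89 bases before the start, shown because this gene carries the element and had similar levels in both sexes:
Hsp90b1, distal: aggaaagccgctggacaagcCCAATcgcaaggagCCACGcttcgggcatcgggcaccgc
Hsp90b1, proximal: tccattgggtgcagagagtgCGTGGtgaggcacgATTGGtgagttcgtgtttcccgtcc
Herpud1, chr8:94386357-94386407 and chr8:94386297-94386344, plus strand, with element II from 52 to 42 and the C/EBP-ATF response element from 112 to 105 bases before the start:
Herpud1, element II: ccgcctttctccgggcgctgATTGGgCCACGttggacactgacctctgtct
Herpud1, C/EBP-ATF: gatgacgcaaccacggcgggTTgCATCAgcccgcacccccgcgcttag
Asns, chr6:7693210-7693252, minus strand, with the C/EBP-ATF response element from 23 to 16 bases before the start:
Asns: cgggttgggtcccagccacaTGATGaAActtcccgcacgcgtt
Herpud1 was the only gene among the 28 with both ER stress element II and a C/EBP-ATF response element in the window.

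Library totals lay between 6826534 and 27832271 counts. The smallest were IVF female 1 and natural female 2, with totals of 6826534 and 8056230, where 3 counts correspond to 0.445 and 0.360 CPM (counts scaled to the TMM-adjusted library total). The summed CPM of 8 hepatocyte markers was 97001 to 115048 in females and 79189 to 104560 in males, which overlapped. Alb alone was at 44666 to 81524 CPM, while Ass1 added only 0.499 to 4.30 CPM. By group, the hepatocyte sums of IVF males (79189 to 87540) lay below all other groups, where the lowest library was a natural male at 92980. Summed markers of Kupffer cells and macrophages were 343 to 541 CPM in females and 181 to 370.2 CPM in males, all 8 detected, and overlapped too. Those of plasma and B cells, which are rich in the chaperones described here, were 5.75 to 28.5 CPM in females and 4.23 to 7.003 CPM in males, with Tnfrsf17 at 0 counts in 7 libraries. Pancreatic acinar markers, another secretory type, were 10.3 to 28.5 CPM in females and 24.9 to 42.6 CPM in males, mostly Cela1, with Cpb1 and Prss2 at 0 counts in all 12. The Kupffer cell sums of IVF males (181 to 275 CPM) likewise lay below all other groups, where the lowest library was a natural male at 340 CPM. In bulk tissue fewer cells of a type and less RNA per cell cannot be told apart.

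The most abundant of the 32 genes were chaperones, disulfide isomerases and Herpud1, and levels within a role differed widely. Levels between genes are given per length, as mean CPM over the 12 libraries for each kilobase of merged exon. P4hb, the beta subunit of prolyl 4-hydroxylase and a disulfide isomerase, was highest at 487, followed by the lectin chaperone Calr (calreticulin) at 402.0, Hsp90b1 (GRP94) at 327 and Hspa5 (BiP, the main ER chaperone) at 292. Next came Herpud1, a component of the ER degradation machinery, at 155, the disulfide isomerases Pdia3 at 154 and Pdia4 at 116, and the membrane-bound lectin Canx (calnexin) at 114. Pdia6 stood at 72.2, Dnajc3 at 65.1 and Dnajb9 at 62.0 CPM per kilobase. The remaining chaperones lay between 27.9 (Sdf2l1) and 43.2 (Creld2), with Hyou1 at 37.7, Dnajb11 at 34.3 and Manf at 32.9. Translocation and degradation genes other than Herpud1 ran from 33.3 for Edem1, 28.2 for Sel1l, 24.2 for Syvn1 and 21.2 for Sec61a1 down to 2.93 for Derl3.

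The transcription factors and sensors ranked 12th or lower among the 32. Of the transcription factors, Xbp1 was at 54.1, Atf4 at 30.6 and Ddit3 (CHOP) at 3.91 CPM per kilobase. The sensors were at 9.86 for Atf6, 6.01 for Ern1 and 3.55 for Eif2ak3. All 5 stress-response targets were among the 8 lowest genes, with Ppp1r15a, which returns eIF2-alpha to its unphosphorylated form, at 5.65, the pseudokinase Trib3 at 2.85, Sesn2 at 2.74, the glutathione-degrading enzyme Chac1 at 1.44 and Asns (asparagine synthetase) at 1.13. The last 2 rested on 7 to 77 and 1 to 349 counts in a library. Neighbours such as Herpud1 and Pdia3, Pdia4 and Canx, or Trib3 and Sesn2 lie closer together than the spread of either between libraries.

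**Figure D1:**
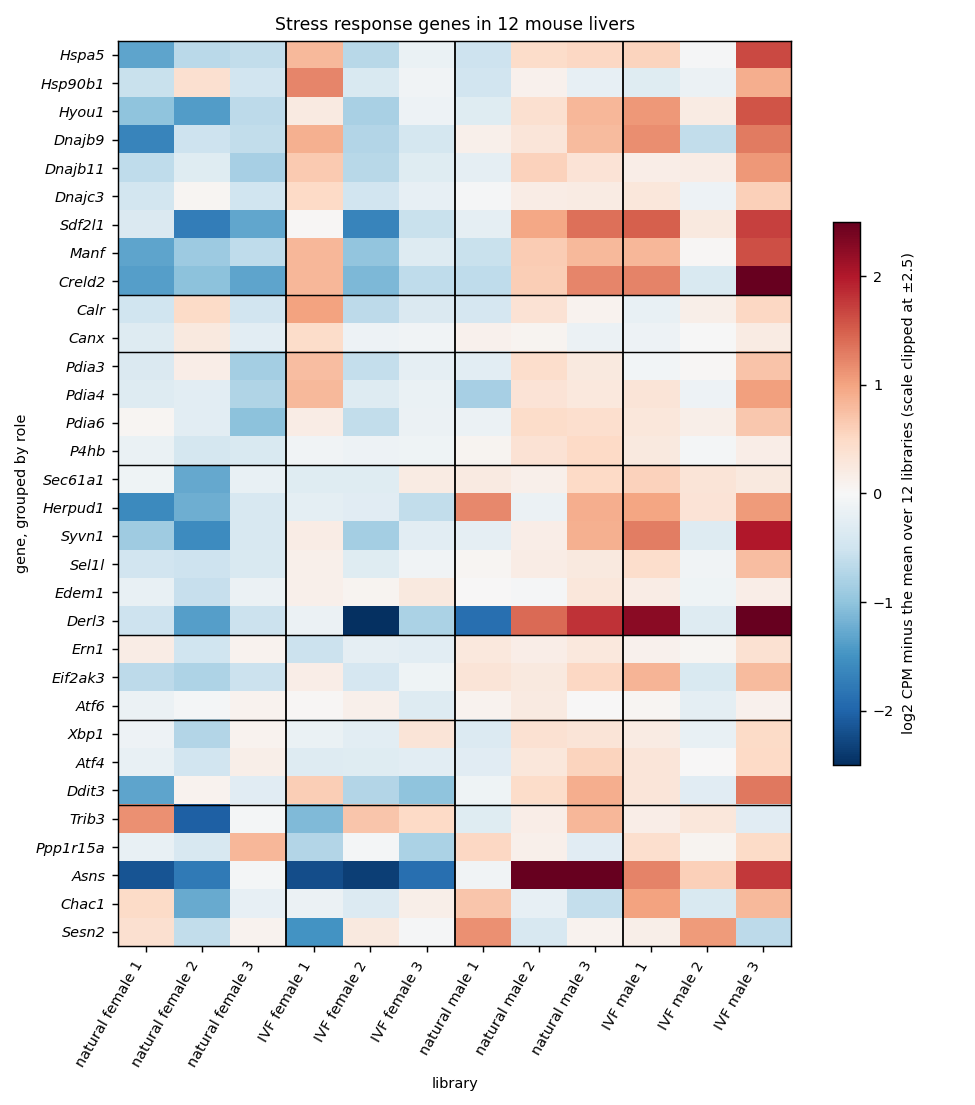
Colour gives, for each of the 32 genes (rows, grouped by role) and 12 libraries (columns, grouped by sex and mode of conception), log2 CPM minus that gene's mean over the 12 libraries. Most rows are blue in the natural females, and IVF male 3 is red for 30 of the 32 genes.

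Library by library, the genes tended to lie on the same side of their means. Each library was given a score, the average deviation of the 32 genes, in log2 CPM, from their means over the 12 libraries, as a description. IVF male 3 scored 0.91 with 30 of 32 genes above their means, and natural male 3 and IVF male 1 followed at 0.56 and 0.55 with 28 each. Natural male 2 scored 0.40 with 28 genes above. At the other end, natural female 2 scored -0.66, IVF female 2 scored -0.56 and natural female 1 scored -0.52, with 6, 4 and 5 genes above their means.

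In 3 of the groups a library departed from the other two. IVF female 1 scored 0.09 with 20 genes above, against -0.28 and -0.56 for the other IVF females. Natural male 1 scored -0.10 with 13 genes above, and IVF male 2 scored -0.0017 with 15 above, each the lowest of its group. Group means were -0.53 ± 0.14 in natural females, -0.25 ± 0.33 in IVF females, 0.29 ± 0.34 in natural males and 0.49 ± 0.46 in IVF males (SD, n = 3 each). The natural females did not overlap either group of males, while the other groups overlapped their neighbours in this order.

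The 32 genes spread more within groups than the median liver gene. The within-group standard deviation of log2 CPM had a median of 0.53 over the 32 genes and 0.38 over all 13204 tested. Among genes averaging at least 50 CPM the medians were 0.51 for 22 of the 32 and 0.32 for 2591 genes. Derl3, a channel component of degradation, varied most at 1.52, ahead of Asns at 1.21 and the secreted chaperone Creld2 at 1.02. P4hb varied least at 0.15, with Atf6 at 0.17 and Edem1 at 0.18. The chaperone Hspa5 ranged from 425 CPM in natural female 1 to 3298 CPM in IVF male 3.

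Males had higher levels than females for most of these genes. In natural animals 30 of the 32 had a higher fitted level in males, with a median log2 fold change of 0.62 against -0.02 over all tested genes. In IVF animals 27 of 32 were higher in males, with a median of 0.56 against 0.01. In natural animals 2 genes, Asns and Herpud1, both higher in males, had an adjusted p-value under 0.05 by the quasi-likelihood test of edgeR, with adjustment after Benjamini and Hochberg over all genes, against 1.77% of all tested genes called. Before adjustment 14 genes had a p under 0.05, all higher in males, where 14.9% of all genes passed in either direction. The male libraries lay wholly above the female ones for 14 of the 32, against 10.1% of all genes.

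In IVF animals 0 of the 32 passed the adjusted threshold in edgeR's test, 12 had an unadjusted p under 0.05, all higher in males. Over all genes edgeR called 2.19%, and 14.9% had an unadjusted p under 0.05. DESeq2's Wald test called 4 of the 32 and 721 of all 13204 genes. Males lay wholly above females for 8 of the 32, against 11.8% of all genes. Averaged over both modes of conception, a comparison added after the data were seen, 7 of the 32 rose in males relative to females and 0 fell, against 7.2% of all genes called. That comparison gave 19 genes with an unadjusted p under 0.05, all higher in males, where the share over all genes was 23.6%. The groups of 6 did not overlap for Herpud1 and P4hb, a pattern seen for 3.2% of all genes.

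**Figure D2:**
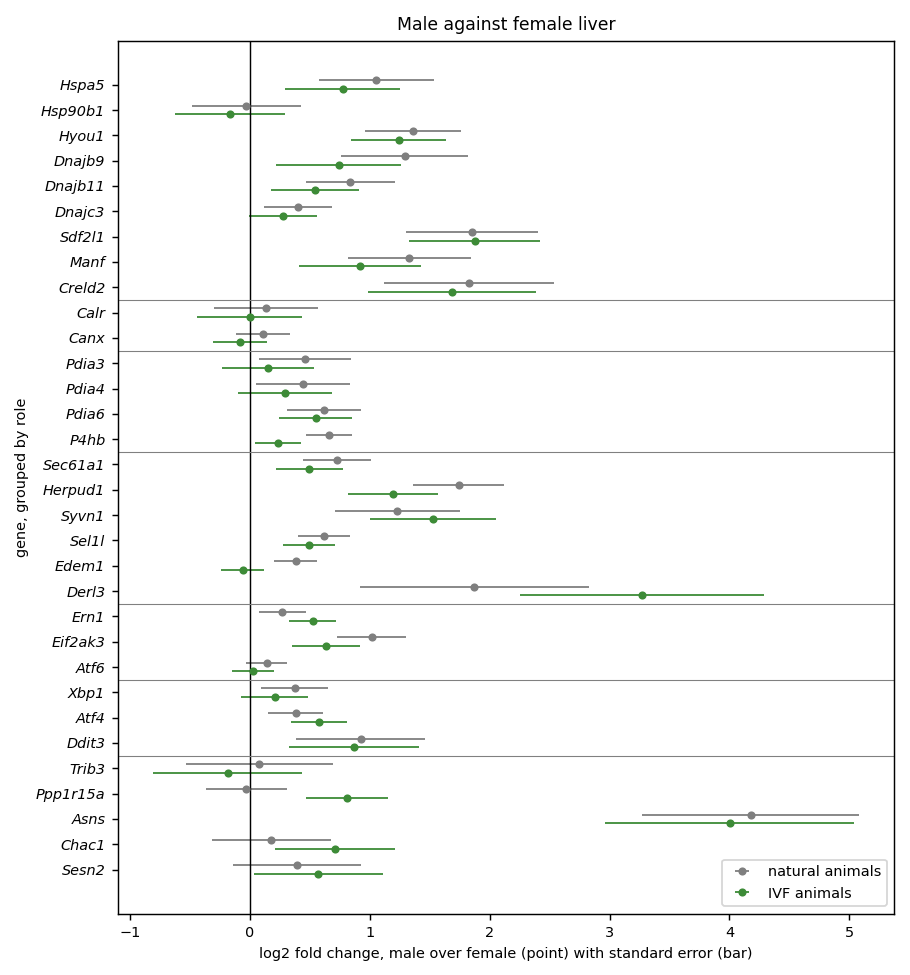
Points give the fitted log2 fold change of male over female liver with its standard error (bars) for each of the 32 genes, in natural animals (grey) and IVF animals (green). Asns lies farthest to the right in both, at 4.18 and 4.00, and the points of Hsp90b1, Calr and Canx lie near 0.

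Among degradation genes Herpud1 gave the clearest separation of the sexes. It was at 100.4, 130.4 and 231 CPM in natural females and 258, 252 and 200.3 CPM in IVF females. In males it was at 697, 276 and 572 CPM when conceived naturally and 602, 388 and 635 CPM after IVF. Every male library was thus above every female one. Its log2 fold change was 1.74 ± 0.38 (SE) in natural animals (edgeR adjusted p = 0.0412), 1.19 ± 0.37 in IVF animals (adjusted p = 0.147) and 1.47 ± 0.27 averaged (adjusted p = 0.00708). The averaged call held in every alternative fit, with adjusted p-values up to 0.0267. The call in natural animals was lost in 12 alternative fits and held in 10, with adjusted p-values up to 0.151.

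Syvn1 and Derl3, partners of Herpud1 in exporting misfolded proteins for destruction, were also higher in males on average. Syvn1, the ubiquitin ligase HRD1, was at 49.9, 31.0 and 69.6 CPM in natural females and 79.1, 103 and 172 CPM in natural males, which did not overlap. After IVF it was at 106, 51.0 and 76.8 CPM in females and 225, 74.4 and 372 CPM in males, where male 2 fell within the female range. The averaged log2 fold change was 1.38 ± 0.37 (edgeR adjusted p = 0.0446, and up to 0.115 in alternative fits). This call of Syvn1 was lost in 14 alternative fits and held in 7. Derl3 was scarce in females, at 2.05, 1.08 and 2.03 CPM in natural and 2.67, 0.333 and 1.67 CPM in IVF animals. Its male libraries were split, at 0.731, 8.09 and 10.7 CPM in natural and 14.6, 2.36 and 23.7 CPM in IVF animals, with natural male 1 and IVF male 2 at female levels. The averaged log2 fold change of Derl3 was 2.57 ± 0.70 (edgeR adjusted p = 0.047, and up to 0.167 in alternative fits). Its averaged call was likewise lost in 14 alternative fits and held in 7. In IVF animals alone the log2 fold change of Derl3 was 3.27 ± 1.02 with an adjusted p of 0.143.

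The other genes of this role followed in smaller steps. Sel1l, the adaptor of HRD1, averaged 171 ± 8.11 CPM in natural females and 261 ± 17.2 CPM in natural males (SD, n = 3), which did not overlap, and its averaged log2 fold change of 0.55 ± 0.15 had an edgeR adjusted p of 0.0516. Sec61a1, the protein-conducting channel, averaged 100.3 ± 38.3 CPM in natural females and 166 ± 23.5 CPM in natural males. Edem1, a mannosidase-like protein that marks glycoproteins for degradation, had a log2 fold change of 0.38 ± 0.18 in natural and -0.06 ± 0.18 in IVF animals.

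Of the 9 chaperones 8 had higher fitted levels in males in each mode of conception, with a median log2 fold change of 1.29 in natural and 0.78 in IVF animals. Averaged, 2 of them rose, Sdf2l1 and Hyou1. Sdf2l1, an ER protein that works with Hspa5, was at 17.7, 6.83 and 9.27 CPM in natural females, 23.5, 7.27 and 15.6 CPM in IVF females, 19.7, 44.6 and 59.5 CPM in natural males and 65.0, 27.4 and 75.1 CPM in IVF males. Males exceeded females within each mode of conception without overlap. Its averaged log2 fold change was 1.86 ± 0.39 (edgeR adjusted p = 0.0152), and in IVF animals alone 1.88 ± 0.55 (adjusted p = 0.118). Hyou1, a large HSP70-family chaperone, was at 114, 86.4 and 146 CPM in natural females, 267, 129 and 208 CPM in IVF females, 184, 301 and 405 CPM in natural males and 482, 263 and 682 CPM in IVF males. Natural animals did not overlap by sex, and in IVF animals male 2 lay just under female 1. The averaged log2 fold change of Hyou1 was 1.30 ± 0.28 (edgeR adjusted p = 0.0186, and 0.0513 in the fit with the highest).

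**Figure D3:**
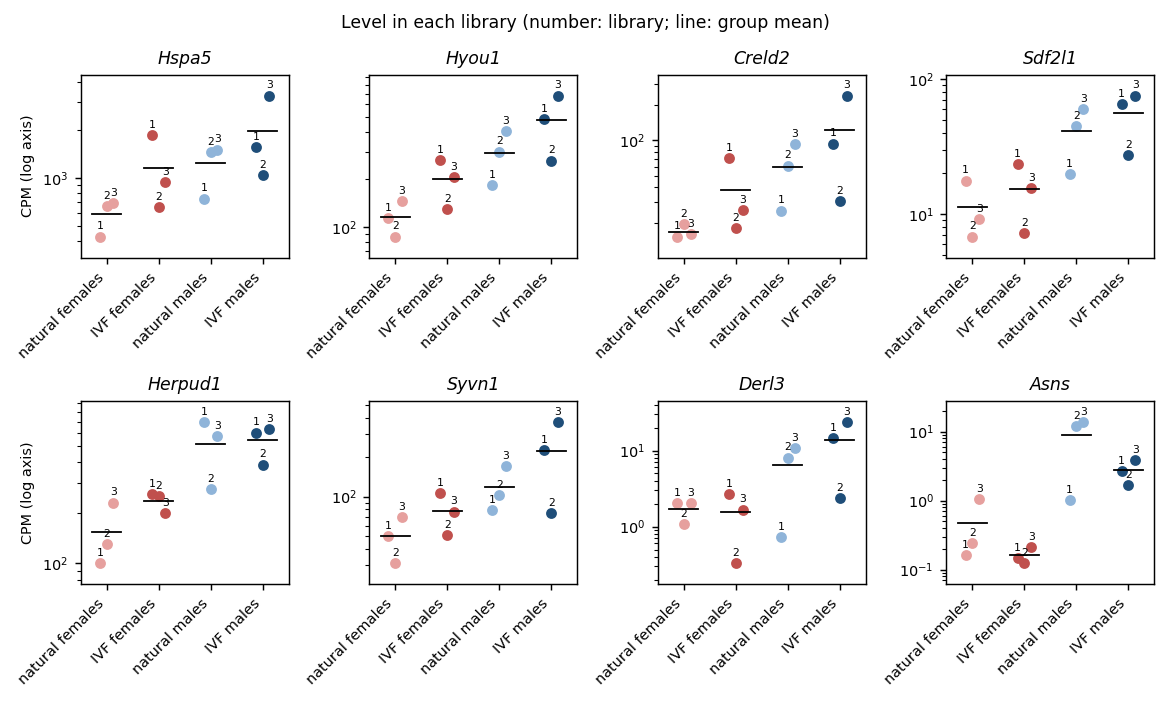
Each point is a library's CPM on a log axis, numbered by library, with the group mean as a line. Shown are 8 of the genes that passed the test or had the smallest p-values in a comparison. Eif2ak3, Edem1, Ppp1r15a and P4hb also met this rule and are not shown. Herpud1 separates all 6 females from all 6 males, while natural male 1 and IVF male 2 lie near the females for Derl3, Creld2 and Sdf2l1.

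The remaining chaperones had the same direction with more overlap, except Hsp90b1. Hspa5 was at 425, 665 and 694 CPM in natural females and 739.9, 1460.4 and 1509 CPM in natural males, a log2 fold change of 1.06 ± 0.48. Creld2 was at 15.2, 19.4 and 15.9 CPM in natural females against 25.4, 61.3 and 92.7 CPM in natural males, 1.83 ± 0.71 on the log2 scale. Manf, a secreted ER stress protein, averaged 50.5 ± 11.9 against 127 ± 54.5 CPM, and the co-chaperones Dnajb9 and Dnajb11 averaged 73.6 ± 27.5 against 179.9 ± 44.5 CPM and 69.0 ± 13.2 against 123 ± 32.7 CPM. These 5 genes did not overlap between natural females and natural males, but all 5 overlapped between IVF females and IVF males. Their log2 fold changes in IVF animals ran from 0.54 ± 0.37 for Dnajb11 to 1.69 ± 0.70 for Creld2. The co-chaperone Dnajc3 had a log2 fold change of 0.40 ± 0.28 in natural animals and overlapped. For Hspa5, Creld2, Manf, Dnajb9 and Dnajb11 the edgeR adjusted p averaged over modes of conception lay between 0.0555 and 0.132.

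With all libraries included, Hsp90b1 and the lectin chaperones did not show this pattern. Hsp90b1 was at 831, 1597 and 875 CPM in natural females and 874, 1306 and 1055 CPM in natural males, a log2 fold change of -0.03 ± 0.46. Calr was at 768, 1525 and 783 CPM in natural females and 809, 1406 and 1162 CPM in natural males, 0.13 ± 0.44 on the log2 scale. For both genes the highest natural female was female 2 and the highest IVF female was female 1, the 2 libraries of smallest total. Canx, at 0.11 ± 0.23, likewise overlapped between the sexes. Apart from natural female 2 and IVF female 1, Calr did not overlap by sex. Females were then at 768 and 783 CPM against at least 809 in natural animals, and 694 and 844 against at least 959 after IVF. Canx then did not overlap in natural animals alone. Hsp90b1 still overlapped in both, in natural animals only by 875 against 874 CPM. Hspa5, Creld2, Derl3, Syvn1, Dnajc3, Pdia6, Canx, Calr and Hsp90b1 share the ER stress element shown above, and their log2 fold changes in natural animals ran from -0.03 for Hsp90b1 to 1.87 for Derl3.

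All 4 disulfide isomerases, which form and rearrange disulfide bonds, had higher fitted levels in males. P4hb was at 1211, 1002 and 1045 CPM in natural females, 1292, 1257 and 1268 CPM in IVF females, 1438, 1766 and 1938 CPM in natural males and 1627, 1324 and 1544 CPM in IVF males. Every male library exceeded every female one, by a log2 fold change of 0.66 ± 0.19 in natural animals (edgeR adjusted p = 0.125) and 0.45 ± 0.13 averaged (adjusted p = 0.068). Pdia6 had an averaged log2 fold change of 0.58 ± 0.22, Pdia4 of 0.37 ± 0.28 and Pdia3 of 0.31 ± 0.27. All 3 overlapped between the sexes.

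Of the sensors Eif2ak3 rose in males and Ern1 and Atf6 did not pass the test. Eif2ak3, the kinase PERK, was at 12.6, 11.6 and 13.7 CPM in natural females and 24.9, 23.6 and 28.5 CPM in natural males, with no overlap. After IVF it was at 22.3, 14.8 and 18.6 CPM in females and 36.0, 15.4 and 34.7 CPM in males, where male 2 fell within the female range. Its log2 fold change was 1.02 ± 0.29 in natural animals (edgeR adjusted p = 0.112) and 0.83 ± 0.20 averaged (adjusted p = 0.0317, and up to 0.0831 in alternative fits). The averaged call of Eif2ak3 was lost in 10 alternative fits and held in 11. Ern1 had an averaged log2 fold change of 0.40 ± 0.14 (adjusted p = 0.106). Atf6 varied little, from 72.2 to 106 CPM over the 12 libraries, with 0.08 ± 0.12.

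None of the 3 transcription factors passed the test between the sexes. Atf4 averaged 63.2 ± 13.7 CPM in natural females, 57.4 ± 1.22 in IVF females, 82.3 ± 22.8 in natural males and 85.6 ± 14.4 in IVF males (SD, n = 3), and the IVF groups did not overlap. Xbp1 averaged 147 ± 39.7, 169.6 ± 38.6, 191 ± 48.3 and 196 ± 43.2 CPM in the same order, with overlap throughout. Ddit3, a pro-apoptotic factor induced late in the response, was between 2.29 and 14.8 CPM. The averaged log2 fold changes of Atf4, Xbp1 and Ddit3 for male over female were 0.48 ± 0.17, 0.29 ± 0.20 and 0.90 ± 0.38 (edgeR adjusted p = 0.105, 0.394 and 0.181).

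Among the targets of the integrated stress response Asns stood apart from the other 4. Asns, which makes asparagine from aspartate and glutamine, was at 0.160, 0.240 and 1.04 CPM in natural females, 0.148, 0.125 and 0.214 CPM in IVF females, 1.01, 12.1 and 13.8 CPM in natural males and 2.68, 1.67 and 3.90 CPM in IVF males. The female values rest on 4, 2 and 18 counts in natural and 1, 3 and 5 counts in IVF animals, against 22, 243 and 349 and 39, 34 and 78 counts in males. Natural male 1 was at the level of natural female 3, and the IVF groups did not overlap. The log2 fold change was 4.18 ± 0.90 in natural (edgeR adjusted p = 0.0394), 4.00 ± 1.04 in IVF (adjusted p = 0.083) and 4.09 ± 0.68 averaged (adjusted p = 0.00449). The averaged call held in every alternative fit, with adjusted p-values up to 0.0473. The call in natural animals was lost in 14 alternative fits and held in 8, with adjusted p-values up to 0.194. Leaving out single libraries moved the log2 fold change in natural animals between 3.65, without natural female 1, and 5.56, without natural female 3.

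Trib3, Chac1, Sesn2 and Ppp1r15a overlapped between the sexes in natural animals, with log2 fold changes from -0.03 for Ppp1r15a to 0.39 for Sesn2. Ppp1r15a was at 9.35, 15.2 and 9.02 CPM in IVF females and 21.01, 16.4 and 21.9 CPM in IVF males, which did not overlap, while natural females reached 27.9 CPM. Trib3 ranged from 1.20 CPM in natural female 2 to 11.7 CPM in natural female 1, so that its extremes lay within a single group. The 2 lowest Trib3 values came from the 2 smallest libraries, with 10 counts in natural female 2 and 16 in IVF female 1 (2.37 CPM). Chac1 and Sesn2, a stress-induced regulator of nutrient signalling, had averaged log2 fold changes of 0.44 ± 0.35 and 0.48 ± 0.38.

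Leaving out a library changed how many of the 32 genes were called by sex. In natural animals the count was 0 to 2 when each library was left out in turn and 0 without both of the smallest libraries, and averaged over modes of conception it was 3 to 9, lowest without natural male 3. The loss came with the removal of libraries of any group, among them IVF females 1, 2 and 3, IVF males 1 and 3, natural females 1 and 2 and natural male 3, each of which left 0 calls in natural animals. In IVF animals 1 gene, Asns, was called without natural male 1, where 260 of all 13499 genes were called. Over all genes, leaving out single libraries gave 111 to 263 calls in natural animals, against 234 with none left out. Averaged over modes of conception it gave 519 to 810, against 951. Summed T and NK cell markers, at 2.03 to 6.83 CPM in females and 0.751 to 1.28 CPM in males, separated the sexes. So did adipocyte markers, at 4.20 to 7.43 CPM in females and 7.53 to 11.5 CPM in males. The adipocyte sums were mostly Fabp4 and Cidec. Lep and Retn were at 0 counts in all 12 libraries, Plin1 in 9 and Adipoq in 7. Scaled to library totals alone, the sums for hepatocytes (107431 to 121928 in females, 79420.5 to 94443 in males), Kupffer cells (356 to 596 and 175 to 323) and stellate cells (295 to 343 and 166 to 269) separated the sexes as well, and those for adipocytes did not. On that scale IVF and natural males overlapped for hepatocytes (80084 to 82374 and 79420.5 to 94443) but not for Kupffer cells (175 to 286 and 309 to 323). The part of any of these in the differences by sex or by mode of conception was not tested.

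In IVF against natural females 0 of the 32 genes passed the adjusted threshold in edgeR's test, as for all genes, where the share called was 0%. DESeq2's Wald test also called 0 of the 32, and 4 of all 13204 genes. At an unadjusted p under 0.05 there was 1 gene, Edem1, against 3.7% of all genes. Fitted levels were higher in IVF females for 25 of the 32, with a median log2 fold change of 0.30 against -0.01 over all genes. IVF females lay wholly above natural females for 4 genes, Edem1, Eif2ak3, P4hb and Sel1l, against 3.55% of all genes.

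All 9 chaperones had higher fitted levels in IVF females, with a median log2 fold change of 0.80, but none passed the test. Hspa5 was at 425, 665 and 694 CPM in natural and 1852, 657 and 936 CPM in IVF females, 0.95 ± 0.48 on the log2 scale (edgeR adjusted p = 1). IVF female 1 alone was far above the natural range, and IVF female 2 lay inside it. Hyou1, with values given above, had 0.80 ± 0.40 (edgeR adjusted p = 1). IVF female 1 also held the highest female level of Calr, at 2184 CPM, of Hsp90b1, at 2834 CPM, and of Manf, at 172 CPM. Without IVF female 1 the median log2 fold change of the 32 genes was 0.10, and without both smallest libraries 0.15, with 20 of the 32 above the median of all genes.

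Edem1 did not depend on that library in its order. It was at 186, 142 and 192 CPM in natural females and 231, 223 and 251 CPM in IVF females, with no overlap and a log2 fold change of 0.44 ± 0.18 (edgeR adjusted p = 1). The smallest adjusted p over its alternative fits was 0.6005. Ppp1r15a went the other way, at 13.8, 11.9 and 27.9 CPM in natural and 9.35, 15.2 and 9.02 CPM in IVF females, -0.67 ± 0.34 on the log2 scale (edgeR adjusted p = 1), and the groups overlapped. Fitted levels were lower in IVF females for 3 of the 5 stress-response targets, with a median of -0.25.

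**Figure D4:**
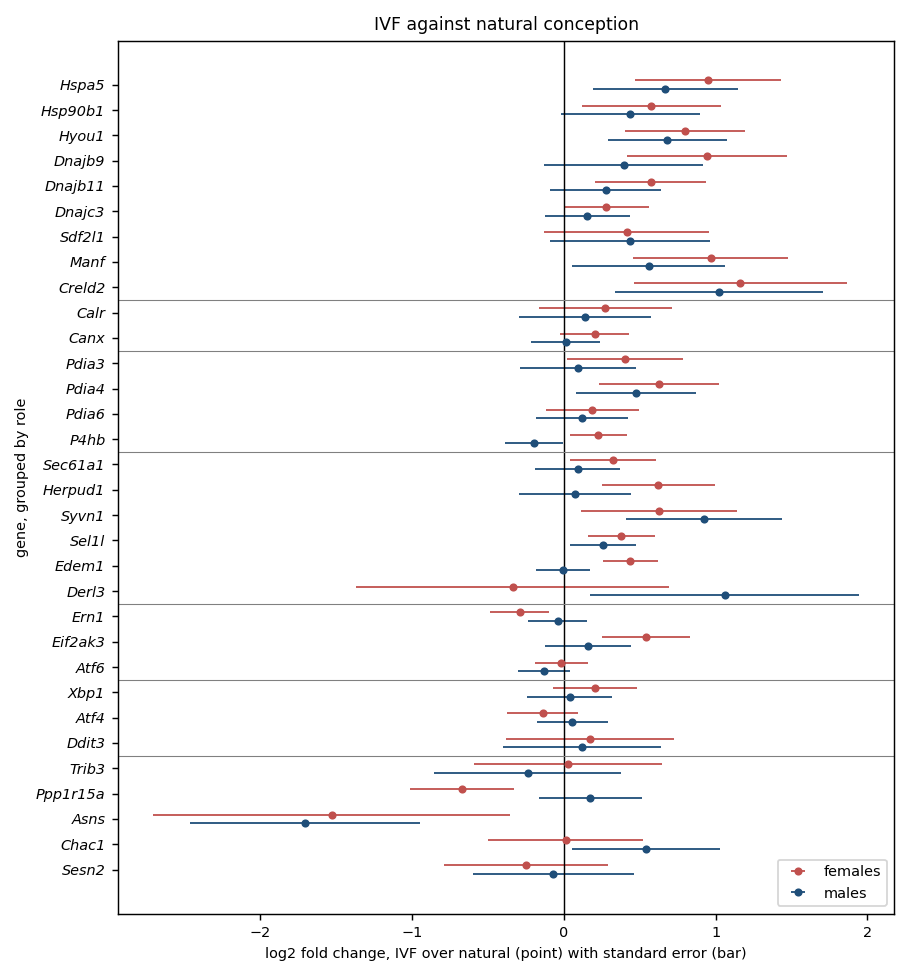
Points give the fitted log2 fold change of IVF over natural liver with its standard error (bars) for each of the 32 genes, in females (red) and males (blue). The 9 chaperones at the top all lie to the right of 0 in both sexes, and Asns lies to the left in both, at -1.53 and -1.70.

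In IVF against natural males 0 of the 32 genes passed the adjusted threshold in edgeR's test, against 0.00757% of all genes. DESeq2's Wald test called 0 as well, and 5 of all 13204 genes. At an unadjusted p under 0.05 there was 1 gene, Asns, lower in IVF males, against 2.69% of all genes. Fitted levels were higher in IVF males for 25 of the 32, with a median log2 fold change of 0.15 against 0.01, and for 0 of them did IVF males lie wholly above natural males, against 4.85% of all genes. Asns, at 1.01, 12.1 and 13.8 CPM in natural and 2.68, 1.67 and 3.90 CPM in IVF males, had a log2 fold change of -1.70 ± 0.76 (edgeR adjusted p = 1). Natural male 1 lay below all 3 IVF males.

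The chaperones again had higher fitted levels after IVF, 9 of 9 with a median log2 fold change of 0.44, and again a single library was far ahead. Creld2 was at 25.4, 61.3 and 92.7 CPM in natural and 94.1, 30.6 and 240.0 CPM in IVF males, 1.02 ± 0.69 on the log2 scale. Syvn1 had 0.92 ± 0.52 and Hyou1 0.68 ± 0.39. For the 3 genes the edgeR adjusted p was 1. IVF male 3 was the highest of all 12 libraries for Creld2, Hspa5, Hyou1, Syvn1 and Derl3. Without IVF male 3 the median over the 32 genes was -0.04, and Creld2 had a log2 fold change of 0.06.

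Averaged over the sexes, IVF against natural gave 0 calls among the 32 genes in edgeR's test, against 0.00757% of all genes, and 4 with an unadjusted p under 0.05, against 2.69%. The 4 were Hyou1, at a log2 fold change of 0.74 ± 0.28, Hspa5, at 0.81 ± 0.34, and Creld2, at 1.09 ± 0.49, all higher after IVF, and Asns, at -1.62 ± 0.70, lower. Each had an edgeR adjusted p of 0.9999, and over all alternative fits the smallest was 0.733. The median of the 32 was 0.23 against 0.00 over all genes.

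The effect of IVF was not shown to differ by sex for any of these genes. The difference of the effects, males minus females, gave 0 calls among the 32 in edgeR's test, against 0% of all genes, and 0 with an unadjusted p under 0.05, against 3.87%. The 4 of smallest p were Ppp1r15a, at 0.84 ± 0.48 on the log2 scale, Edem1, at -0.44 ± 0.26, P4hb, at -0.42 ± 0.27, and Herpud1, at -0.55 ± 0.52, each with an edgeR adjusted p of 0.9999. Standard errors ran up to 1.79 for Asns, with 1.36 for Derl3, 0.97 for Creld2 and 0.67 for Hspa5. A difference of severalfold could thus have gone undetected for Asns, Derl3 and Creld2. The median difference over the 32 genes was -0.14 against 0.03 over all genes. It was 0.07 under scaling by library size alone, where the median of all genes moved to 0.23, and 0.06 without the 2 smallest libraries. Leaving out single libraries moved it between -0.34, without IVF male 3, and 0.15, without IVF female 1.

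A wider list of 134 other genes of ER folding, transport, degradation and stress signalling, also drawn up with earlier results known, had 131 genes that could be tested. In natural animals 98 of the 131 had higher fitted levels in males, with a median log2 fold change of 0.34, and 3 passed the adjusted threshold in edgeR's test, near the share of 1.77% of all genes. Fkbp11, a prolyl isomerase of secretory cells, was at 2.53, 2.28 and 3.36 CPM in natural females and 6.17, 8.94 and 10.5 CPM in natural males, 1.64 ± 0.34 on the log2 scale (adjusted p = 0.0324). Txndc11, a thioredoxin-domain protein of the ER, had 1.45 ± 0.32 (adjusted p = 0.0459). Both rose in males, and the sexes did not overlap for either. The call of Fkbp11 was lost in 9 alternative fits and held in 13, and that of Txndc11 was lost in 13 and held in 9. Kdelr3, Stc2 and Phgdh were too low to be tested.

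Vldlr, the very-low-density lipoprotein receptor and a target of the PERK and ATF4 branch, fell in males. It was at 49.0, 60.04 and 70.8 CPM in natural females and 6.62, 8.99 and 1.26 CPM in natural males. In IVF animals it was at 58.2, 88.8 and 63.1 CPM in females and 4.46, 6.79 and 3.30 CPM in males. The log2 fold change was -3.42 ± 0.55 (edgeR adjusted p = 0.00766) in natural and -3.85 ± 0.56 (adjusted p = 0.00345) in IVF animals. It was the only gene of the 131 called in IVF animals, against 2.19% of all genes, and 94 had higher fitted levels in males and the median was 0.23. Vldlr and Asns, both listed as targets of the same branch, therefore differed between the sexes in opposite directions.

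Averaged over modes of conception, 21 of the 131 rose in males and 1, Vldlr, fell, against 7.2% of all genes called in either direction. The 21 included 7 folding genes, 4 each of degradation and of translocation and glycosylation, 3 stress-response targets, 2 of transport from the ER and 1 regulator. Beside Fkbp11 (1.48 ± 0.24) and Txndc11 (1.15 ± 0.23) they included the ER oxidase Ero1lb (0.95 ± 0.20, edgeR adjusted p = 0.0163), the glycoprotein glucosyltransferase Uggt1 (0.64 ± 0.14, adjusted p = 0.0193) and the ER protein Erp29 (0.51 ± 0.12, adjusted p = 0.0282). Uggt1 averaged 68.9 ± 12.99 CPM in natural females and 121 ± 0.402 CPM in natural males (SD, n = 3).

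For IVF against natural, 0 of the 131 passed the adjusted threshold in edgeR's test in either sex. In females 94 had higher fitted levels after IVF, with a median log2 fold change of 0.15, and 6 had an unadjusted p under 0.05, all higher, a share near the 3.7% of all genes. The smallest p was that of Sec23b, a coat component of vesicles leaving the ER, at 18.9, 14.1 and 19.5 CPM in natural and 44.8, 23.8 and 37.7 CPM in IVF females, with no overlap. Its log2 fold change was 1.01 ± 0.29 (edgeR adjusted p = 1). In males 89 of the 131 had higher fitted levels after IVF, with a median of 0.08, and 0 had an unadjusted p under 0.05, against 2.69% of all genes. The smallest was that of the stress-induced transcription factor Atf3, at 0.731, 0.799 and 0.870 CPM in natural and 1.85, 2.31 and 1.001 CPM in IVF males (log2 fold change 1.10 ± 0.52, edgeR adjusted p = 1). Averaged over the sexes 95 of the 131 had higher fitted levels after IVF, with a median of 0.12, and 2 had an unadjusted p under 0.05, against 2.69%. For the difference between the sexes 1 gene of the 131 had an unadjusted p under 0.05, against 3.87%, the apoptosis factor Bax, at 0.77 ± 0.30 with an edgeR adjusted p of 0.9999.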

How the data were processed

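Poly-A selected RNA of snap-frozen liver was sequenced on an Illumina NextSeq from libraries made with a KAPA kit, per the labels' protocols. The values are whole-number read counts per gene symbol in a single table, as deposited by the authors. The submitters' processing notes name Trimmomatic 0.32, STAR 2.3.0e, featureCounts 1.5.0 and build mm10, without role or order. The use of strand, the annotation and the treatment of reads matching several genes are not given in the sources used here, so a gene and an overlapping or antisense partner cannot be told apart. Columns were matched to samples by title, and replicate numbers follow accession order.

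The counts were fitted with edgeR 4.0.16 (R 4.3.3): filterByExpr by group, TMM scaling, and 1 quasi-likelihood model over 12 libraries with a mean for each group. Calls used p-values adjusted over 13204 genes after Benjamini and Hochberg, at a threshold of 0.05. CPM, marker sums included, are TMM-scaled unless library totals are named, scores used log2 CPM with a prior count of 2, and standard errors were taken as the log2 fold change over the square root of F. Gene positions and exon lengths came from GENCODE M21, and promoters from RefSeq (GRCm38.p6), where Hyou1, Atf6, Manf and Sec61a1 had no entry. The rule for naming took each called gene and the 4 of smallest p among the 32 in each comparison, and among other pathway genes up to 6 called or the 1 of smallest p. Members and lists were chosen with earlier results of these data known. Alternatives were DESeq2 1.42.0 (size factors, and its own test), library size alone, limma 3.58.1 voom, other filters, an adjusted p under 0.1, fits to the 6 libraries compared, a covariate for or removal of the 2 smallest libraries, leaving out Rn45s, and leaving out each library in turn. The male against female comparison averaged over modes of conception was added after seeing the data. The fitting code was tested on simulated data. Every pair of libraries within a group differed by more than sampling noise (lowest chi-square 80.7 per degree of freedom).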

Additional observations from a re-analysis of the deposited data

How the results depend on the processing

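For IVF against natural, and for the difference of its effects between the sexes, 0 of the 32 genes were called under every alternative run. Over all genes these comparisons gave between 0 and 9 calls in the fits at an adjusted p under 0.05. For male against female in natural animals the count of 2 became 6 with DESeq2's Wald test, 1 with library size alone (Asns), 1 with limma voom (Herpud1), 1 with a covariate for the 2 smallest libraries (Herpud1), 0 in a fit to only the 6 libraries compared and 0 without both smallest libraries. Leaving out each library in turn gave 0 to 2. Over all genes the count of 234 became 232 with limma voom, 458 with the covariate and 139 in the fit to 6 libraries. It was 225 without both smallest libraries and 111 to 263 on leaving out each library. In IVF animals the count of 0 became 4 with DESeq2's Wald test (Asns, Derl3, Herpud1 and Sdf2l1), 1 in a fit to only the 6 libraries compared and 1 at an adjusted p under 0.1 (Asns in both), and leaving out each library gave 0 to 1. Over all genes the count of 289 became 201 in the fit to 6 libraries, and leaving out each library gave 137 to 348. Averaged over modes of conception the count of 7 became 12 with DESeq2's Wald test, with the covariate and at an adjusted p under 0.1. Leaving out each library gave 3 to 9. Over all genes the count of 951 became 1264 with the covariate, and leaving out each library gave 519 to 810. No count over all genes was taken at an adjusted p under 0.1. No paired analysis was possible because replicate numbers follow accession order and pair no samples. The titles of IVF female 1 and IVF male 2 share a number whose meaning the labels do not give, and no other titles share theirs.

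Scaling by library size alone moved the median of all genes (log2) to -0.34 in natural and -0.10 in IVF animals for male against female, and to 0.14 for IVF against natural males. The median of the 32 genes minus that of all genes was then 0.65, 0.55 and 0.13, against 0.64, 0.55 and 0.14 under TMM. Of 234 genes called by sex in natural animals 118 were higher in males, and under library size alone 88 of 510. The split was 120 of 289 against 92 of 313 in IVF animals and 472 of 951 against 252 of 1625 averaged. DESeq2's test called 678, 721 and 1693 genes in these 3 comparisons. The median of the 32 genes stayed above 0 in every alternative for male against female. Depth limits Asns, Derl3 and Chac1 most, since 3 counts correspond to 0.445 CPM in IVF female 1.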

Other observations

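Some genes outside the ER lists were looked at after their values were seen, and they are given as values with no test. Hspa1a, the inducible cytosolic HSP70, was at 4.97, 7.55 and 24.9 CPM in natural females, 59.8, 20.8 and 12.99 CPM in IVF females, 49.5, 129.7 and 171 CPM in natural males and 125, 51.7 and 106 CPM in IVF males. IVF female 1 was the highest female, as for all 9 ER chaperones, and natural male 1 and IVF male 2 were the lowest males. Hspa8, its constitutive relative, was between 358 and 1332 CPM, with both extremes in natural females.

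The acute-phase genes Saa1 and Lcn2 differed widely between livers of a group. Saa1 was at 1765, 8490.4 and 4138 CPM in natural males and 93.9 to 394 CPM in natural females. Lcn2 was at 14.7, 1615 and 1173 CPM in natural males, 12.96 to 57.2 CPM in IVF males and 9.27 to 181 CPM in females. Natural males 2 and 3, the libraries high in Lcn2, were also those with the most Asns, at 12.1 and 13.8 CPM. IVF female 1, next highest in Lcn2 at 181 CPM, had Asns at 0.148 CPM. IVF males 2 and 3, with Lcn2 at 12.99 and 12.96 CPM, had Asns at 1.67 and 3.90 CPM. A link between the 2 genes was not tested.

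Arntl, a core clock gene, was at 15.5, 22.2 and 4.23 CPM in natural females and between 2.10 and 6.69 CPM in the other 9 libraries. Dbp, a clock output gene, was at 18.7, 8.99 and 64.8 CPM in natural females. Natural females 1 and 2 thus held the highest Arntl and the lowest Dbp of the 12 libraries. They were also among the 3 libraries with the lowest scores over the 32 stress-response genes. The other of the 3, IVF female 2, had Arntl at 6.69 CPM and Dbp at 43.2 CPM. A link between clock genes and the scores was not tested.

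Of 28 genes outside the list with an ER stress element in the promoter window, 11 were tested. In natural animals 2 of the 11 had higher fitted levels in males and 9 lower, with a median log2 fold change of -0.24 against -0.02 over all genes. In IVF animals 4 were higher and 7 lower, with a median of -0.05 against 0.01. The near-identical Xlr3a, Xlr3b and Xlr3c are 3 of the 11, and their fitted levels were lower in natural and higher in IVF males than in females.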
